A study of Mus musculus with 12 samples.

Results

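The genes described here are 40 genes of G2 and mitosis, chosen by symbol from the 41457 genes counted in poly(A) RNA sequencing of mouse T helper cultures, and all 40 passed the filter on low counts in every fit. They code for cyclins, CDK1 and its regulators, mitotic kinases, the chromosomal passenger complex, and centromere and spindle proteins. Others code for the machinery of cytokinesis, chromosome proteins, and proteins that act with the anaphase-promoting complex or in chromatid separation. CD4+ T cells from lymph nodes and spleen of C57BL/6 mice were stimulated with anti-CD3 and anti-CD28 and polarised to Th1 (IL-12 and anti-IL-4), Th2 (IL-4 and anti-IFN-γ) or Th17 (TGFβ, IL-6 and both antibodies). Each cell type was grown from wild type (WT) mice and from NFATc1/ΔS mice, in which, per the series title, NFATc1 lacks SUMOylation, and RNA was taken at 2 times, after 2.5 and after 3.5 days (day 2.5 and day 3.5 below). The 12 combinations of cell type, genotype and day have 1 library each. The Th17 cultures also differed in medium (IMDM, not RPMI) and received less anti-CD3, so polarisation and culture conditions cannot be told apart in any comparison with them. The labels do not say whether the libraries came from separate mice or cultures, so every p-value below measures the spread between these libraries.

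Cells that enter G2 build up mitotic cyclins, kinases and spindle proteins, and they do so largely by transcription. The genes are repressed early in the cycle by the DREAM complex and are switched on by B-MYB and FOXM1, which reach them through the MuvB core bound at the cell cycle homology region (CHR), while NF-Y binds nearby CCAAT boxes. Cyclin B with CDK1 drives mitotic entry, and the anaphase-promoting complex (APC/C) with its activator CDC20 ends mitosis by destroying cyclin B and securin. Activated T cells pass through this programme repeatedly during clonal expansion, which is why Mki67 and Top2a are widely used marks of dividing lymphocytes.

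The promoters of 7 of the genes are shown. They belong to cyclins with CDK1 and to APC/C and chromatid separation genes, at the entry to and the exit from mitosis. The sequences are from RefSeq for GRCm38.p6 and run 5′ to 3′ on the gene's strand from 100 bases before to 30 bases after the annotated start. Capitals mark the letters TTTGAA, used here for the CHR, and CCAAT, either of them on either strand (TTCAAA and ATTGG). The windows are chr13:100786457-100786586 on the minus strand for Ccnb1 and chr9:70421525-70421654 on the minus strand for Ccnb2. They are chr10:69352883-69353012 on the minus strand for Cdk1, chr4:118437314-118437443 on the minus strand for Cdc20 and chr15:102296193-102296322 on the plus strand for Espl1. They are chr2:164769829-164769958 on the plus strand for Ube2c and chr11:43425952-43426081 on the minus strand for Pttg1.
Ccnb1: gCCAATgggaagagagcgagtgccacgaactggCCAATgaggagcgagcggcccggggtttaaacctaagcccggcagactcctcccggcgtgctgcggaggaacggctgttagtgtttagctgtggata
Ccnb2: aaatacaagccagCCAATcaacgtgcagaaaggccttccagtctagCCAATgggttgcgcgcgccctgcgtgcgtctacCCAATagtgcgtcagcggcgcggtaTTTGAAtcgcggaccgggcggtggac
Cdk1: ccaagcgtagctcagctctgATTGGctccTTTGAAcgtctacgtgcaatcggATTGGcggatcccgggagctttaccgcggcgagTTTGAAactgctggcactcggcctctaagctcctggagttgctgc
Cdc20: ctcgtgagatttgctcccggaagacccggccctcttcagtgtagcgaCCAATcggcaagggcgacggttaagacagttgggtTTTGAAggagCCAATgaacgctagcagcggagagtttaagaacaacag
Espl1: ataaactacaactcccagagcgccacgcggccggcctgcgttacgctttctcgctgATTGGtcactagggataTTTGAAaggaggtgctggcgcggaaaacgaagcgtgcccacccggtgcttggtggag
Ube2c: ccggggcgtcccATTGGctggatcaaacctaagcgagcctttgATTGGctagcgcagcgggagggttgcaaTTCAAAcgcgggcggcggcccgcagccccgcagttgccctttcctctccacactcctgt
Pttg1: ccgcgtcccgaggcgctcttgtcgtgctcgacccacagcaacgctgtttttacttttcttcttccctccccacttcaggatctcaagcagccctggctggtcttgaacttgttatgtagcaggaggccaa

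Ccnb2, Cdk1, Cdc20, Espl1 and Ube2c hold both motifs in this stretch. Cdk1 holds 2 matches to each motif, and Ccnb2 holds 3 matches to CCAAT upstream of 1 to TTTGAA. Ccnb1 holds 2 CCAAT matches and no TTTGAA, and Pttg1, the gene for securin, holds neither. The Pttg1 window lies inside the counted gene, whose upstream end is at chr11:43426251, so the stretch before that end was not searched. The promoter table had entries for 32 of the 40 genes, leaving out Aurkb, Ccna2, Cdc25c, Dlgap5, Foxm1, Incenp, Kif20a and Tpx2. In the wider window from 250 bases before to 50 after the start, TTTGAA occurred on either strand in 24 of 32 (75.0%), against 20.2% of the 27025 symbols in the table. CCAAT occurred in 26 of 32 (81.2%), against 41.1%, and both occurred in 22 of 32 (68.8%), against 9.0%. Birc5, Ncaph, Nusap1 and Pttg1 were the 4 with neither, and the wider Pttg1 window also lies inside the counted gene. Neither motif contains the other, although their end letters can be shared, and a symbol with several annotated starts had more chances to match. A match is a match of letters and not a mapped binding site.

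Per length, the most abundant of the 40 transcripts was Top2a, the topoisomerase that untangles sister chromatids, with a median over the 12 libraries of 98.3 exon CPM per kb of exon (CPM, read counts scaled to library size, 62.6 to 119). Next were Ccnb2 (cyclin B2) at 71.7 (39.9 to 106), Cdc20 at 70.2 (40.6 to 97.9), Mki67 at 63.7 (38.6 to 77.4), Ube2c, the E2 enzyme of the APC/C, at 62.7 (39.0 to 76.7) and Ccna2 (cyclin A2) at 54.9 (30.7 to 79.9). The ranges of these neighbours overlapped. Plk1 lay at 46.5, Aurkb at 45.2, Ccnb1 at 34.3, Birc5 (survivin) at 22.5, Cdk1 at 20.7 and the transcription factor gene Foxm1 at 12.0 on the same scale, and the cytokinesis scaffold gene Anln was lowest at 2.93. Ccnb1 stood below Ccnb2 in every library: the ratio of the pair per length was 0.381 to 0.514 in 10 libraries, 0.373 in Th1 WT day 2.5 and 0.724 in Th1 NFATc1/ΔS day 2.5. Reads for Prc1 (27.7% unique), Kif20a (75.6%) and Ccna2 (80.6%) were partly shared with other loci, so their values are less certain than those of the other 37 genes.

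The libraries held 13417121 to 17774400 gene reads, of which 78.9% to 81.4% were unique. Tbx21 and Gata3, which define Th1 and Th2 cells, were each highest in their own cell type. Both Th1 day 2.5 libraries stood apart. Over 10835 genes, Th1 WT day 2.5 correlated more closely with the Th17 libraries (0.963 to 0.98) than with the other Th1 libraries (0.945 to 0.962). It was closest to Th17 of day 3.5 (0.980 for WT and 0.979 for NFATc1/ΔS), with 0.963 and 0.968 for Th17 of day 2.5. Th1 NFATc1/ΔS day 2.5 correlated at 0.92 to 0.945 with the other Th1 libraries. The 2 Th1 libraries of day 3.5 correlated at 0.995 with each other. The calls by day and by cell type that include these libraries are therefore also given without 1 or both of them. Values by pair and the genotype calls that include Th1 are mostly given only with them. Nfatc1 itself was read at 128 to 269.8 CPM, which checks no genotype label, since gene counts do not show the SUMOylation sites.

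The level of the whole set differed between libraries. Its summed level in Th17 WT was 3598 CPM on day 2.5 and 6053 on day 3.5, and in Th17 NFATc1/ΔS it was 4313 and 6657. In Th2 the sums were 4355 and 5272 for WT and 4757 and 6219 for NFATc1/ΔS. In Th1 they were 6694 and 6553 for WT and 7216 and 6175 for NFATc1/ΔS. The Th1 libraries were thus as high on day 2.5 as any library on day 3.5, while Th2 and Th17 started lower and reached 5272 to 6657. Th17 WT day 2.5 was the lowest library for 33 of 40 genes, and Th1 NFATc1/ΔS day 2.5 was the highest for 21 and Th1 WT day 2.5 for 9. The highest library exceeded the lowest by 1.65-fold (Aurkb) to 3.04-fold (Pttg1), with a median of 2.05-fold. In these bulk samples, fewer cells in G2 and mitosis and less of these RNAs per cell cannot be told apart.

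**Figure D1:**
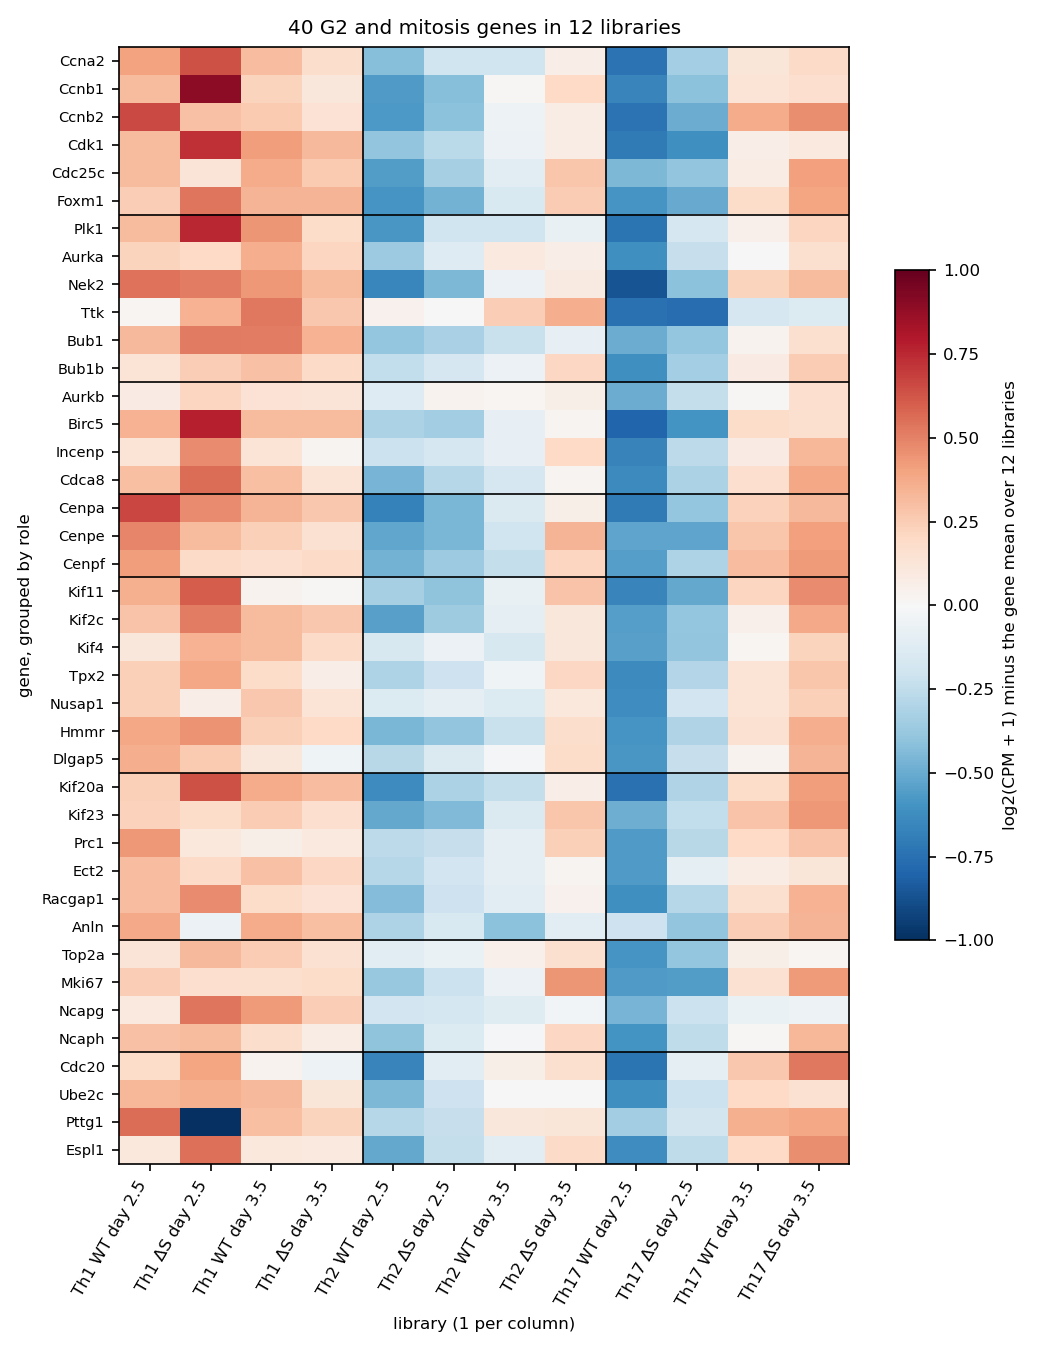
Each row is a gene and each column a library, and colour gives log2(CPM + 1) minus the gene's mean over the 12 libraries. Black lines separate the roles and the cell types. Th17 WT day 2.5 lies below the gene's mean (blue) for all 40 genes, and the scale stops at ±1, beyond which only Pttg1 lies in Th1 NFATc1/ΔS day 2.5.

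The first comparison was day 3.5 against day 2.5. Over all 6 pairs of libraries (same cell type and genotype), none of the 40 genes passed the test: edgeR's quasi-likelihood F test, with p-values adjusted by Benjamini and Hochberg's method over all genes, called 0 of 40, as it called 0% of 12329 genes, and DESeq2 also called 0 of 40. At an unadjusted p under 0.05, 10 of the 40 and 1333 of all genes passed. All 40 estimates were above 0, with a median of 0.29 on the log2 scale against -0.01 for all genes tested. The smallest adjusted p was 0.346 (Cdc25c, a phosphatase that activates CDK1, 0.44 ± 0.13 SE), and Ttk (0.36), Kif23 (0.41), Aurka (0.29), Foxm1 (0.45) and Pttg1 (0.49) followed without passing. The 6 pairs did not move alike. By pair, the median was -0.01 in Th1 WT and -0.21 in Th1 NFATc1/ΔS, 0.30 and 0.36 in Th2, and 0.77 and 0.62 in Th17, again WT first. The number of genes higher on day 3.5 was 19 and 8 of 40 in the Th1 pairs, 37 and 40 in the Th2 pairs, and 40 in each Th17 pair. For the background by pair, 10835 genes passed the filter on low counts with all 12 libraries as 1 group. Of these, 51.4% and 49.1% were higher in the Th1 pairs, 51.6% and 52.2% in the Th2 pairs and 49.8% and 52.6% in the Th17 pairs.

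**Figure D2:**
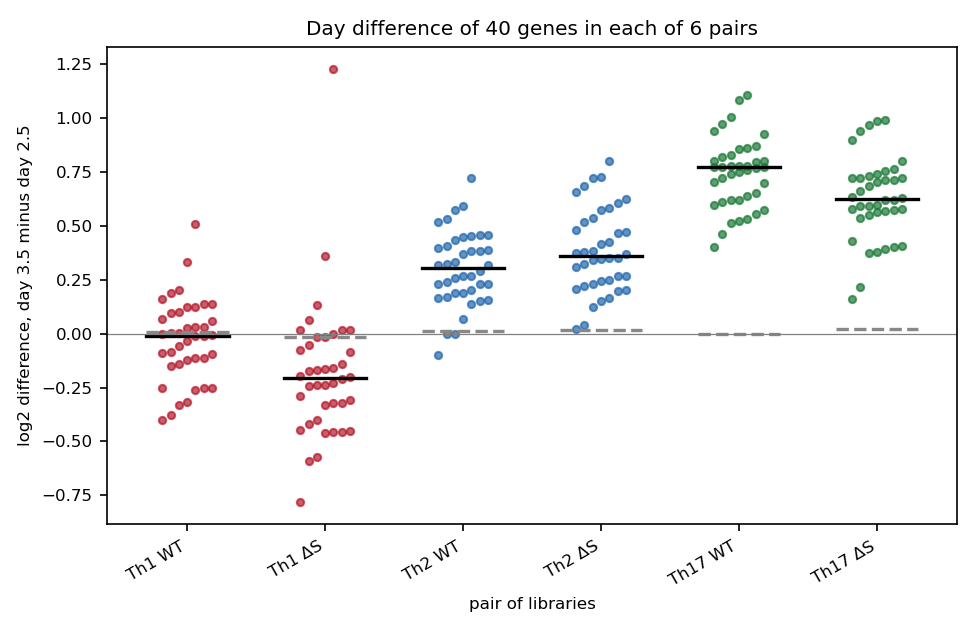
Each point is 1 of the 40 genes and the vertical axis gives its log2 difference, day 3.5 minus day 2.5, within a pair of libraries. Black lines are medians over the 40 genes and dashed grey lines medians over all genes; the 40-gene medians run from -0.21 in Th1 NFATc1/ΔS to 0.77 in Th17 WT.

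Within Th2 and Th17 the programme rose from day 2.5 to day 3.5. Over these 4 pairs, fitted without the Th1 libraries, edgeR called 39 of 40 genes higher and none lower, where it called 20.8% of 12415 genes higher and 19.7% lower. The median difference was 0.51, or 1.43-fold, against 0.03 for all genes, and the range was 0.20 to 0.78. Anln was the exception (0.31 ± 0.14, adjusted p = 0.108 by edgeR). In 33 of 40 genes all 4 day 3.5 libraries lay above all 4 day 2.5 libraries, as in 13.5% of all genes. Without any 1 of the 4 pairs, 34 to 39 genes passed, counts given without the share of all genes.

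Ccnb1, which codes for the cyclin that carries CDK1 into mitosis, was read on day 2.5 at 91.4 CPM in Th2 WT, 101 in Th2 NFATc1/ΔS, 85.5 in Th17 WT and 102 in Th17 NFATc1/ΔS. On day 3.5 the values were 136, 155, 149 and 152 CPM in the same order. The day 3.5 libraries were all higher, with no overlap, and the difference was 0.65 ± 0.07 (log2, SE; edgeR adjusted p = 6.98e-05). Ccnb2 stood at 69.3, 77.8, 61.7 and 73.0 CPM on day 2.5 and at 99.6, 109, 134 and 144 on day 3.5 (0.78 ± 0.11, edgeR adjusted p = 0.000802). The day difference of Ccnb2 was the largest of the 40, and its 2 Th17 libraries of day 3.5 were above both Th2 ones. Cdk1 rose by 0.55 ± 0.09, Ccna2 by 0.48 ± 0.10 and Cdc25c by 0.64 ± 0.09.

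Foxm1, whose product activates much of this set, stood at 39.6, 43.2, 39.7 and 42.2 CPM on day 2.5 and at 53.9, 72.1, 68.5 and 79.4 on day 3.5 (0.72 ± 0.08, edgeR adjusted p = 0.000116). The 4 day 2.5 values lay close together, and on day 3.5 both NFATc1/ΔS libraries were above both WT ones. Among the kinases, Nek2, which acts in centrosome separation, rose by 0.74 ± 0.09, whereas Plk1 (0.42 ± 0.10) and Aurka (0.42 ± 0.08) rose less. Bub1 (0.38 ± 0.08), Bub1b (0.47 ± 0.09) and Ttk (0.45 ± 0.09), which serve the spindle checkpoint, also passed.

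All 4 subunits of the chromosomal passenger complex rose, the targeting subunit Birc5 by 0.595 ± 0.120 and the kinase Aurkb by 0.28 ± 0.09 (edgeR adjusted p = 0.0264). The scaffold gene Incenp (0.46 ± 0.10) and Cdca8, which codes for borealin (0.53 ± 0.10), lay between them. Aurkb was read at 119, 133, 91.4 and 109 CPM on day 2.5 and 132, 135, 131 and 145 on day 3.5. These values overlapped, since Th2 NFATc1/ΔS on day 2.5 was above 2 of the day 3.5 libraries. The 3 centromere and kinetochore genes rose together: Cenpa, the centromeric histone H3 variant, by 0.68 ± 0.08, the kinetochore motor gene Cenpe by 0.72 ± 0.10 and Cenpf by 0.61 ± 0.10.

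Of the 7 spindle genes all passed, from Kif4 (0.34 ± 0.11) to the bipolar-spindle motor gene Kif11 (0.71 ± 0.11), with Kif2c, a microtubule depolymerase gene, at 0.58 ± 0.08. Tpx2, whose product activates Aurora A on the spindle, rose by 0.51 ± 0.08, Hmmr by 0.56 ± 0.09, Dlgap5 by 0.45 ± 0.08 and Nusap1 by 0.35 ± 0.11. In cytokinesis 5 of 6 passed, led by Kif23, a centralspindlin motor gene, at 0.65 ± 0.08. Its partner Racgap1 rose by 0.50 ± 0.09, the RhoA activator gene Ect2 by 0.32 ± 0.08, Prc1, which bundles midzone microtubules, by 0.50 ± 0.09 and Kif20a by 0.61 ± 0.10. Mki67 was read at 444, 496, 389 and 392 CPM on day 2.5 and at 555, 782, 642 and 775 on day 3.5 (0.67 ± 0.10, edgeR adjusted p = 0.000520). Its 2 highest values were the NFATc1/ΔS libraries of day 3.5. Top2a rose less (0.36 ± 0.09), and the condensin I gene Ncapg had the smallest difference of the 40 (0.20 ± 0.07, edgeR adjusted p = 0.0479), while Ncaph, of the same complex, rose by 0.49 ± 0.07.

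The genes that end mitosis rose as well. Cdc20 stood at 80.0, 118, 76.0 and 119 CPM on day 2.5 and at 132, 142, 153 and 183 on day 3.5 (0.66 ± 0.11, edgeR adjusted p = 0.00146). The NFATc1/ΔS library was above the WT one in each of its 4 pairs. Espl1, the gene for separase, rose by 0.60 ± 0.08, Pttg1 by 0.52 ± 0.08 and Ube2c by 0.46 ± 0.09. Genes whose 300-base promoter window held TTTGAA had a median day difference of 0.52 (24 genes, 0.20 to 0.78) and those without it 0.56 (8 genes, 0.35 to 0.74), so the ranges with and without this motif overlapped.

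**Figure D3:**
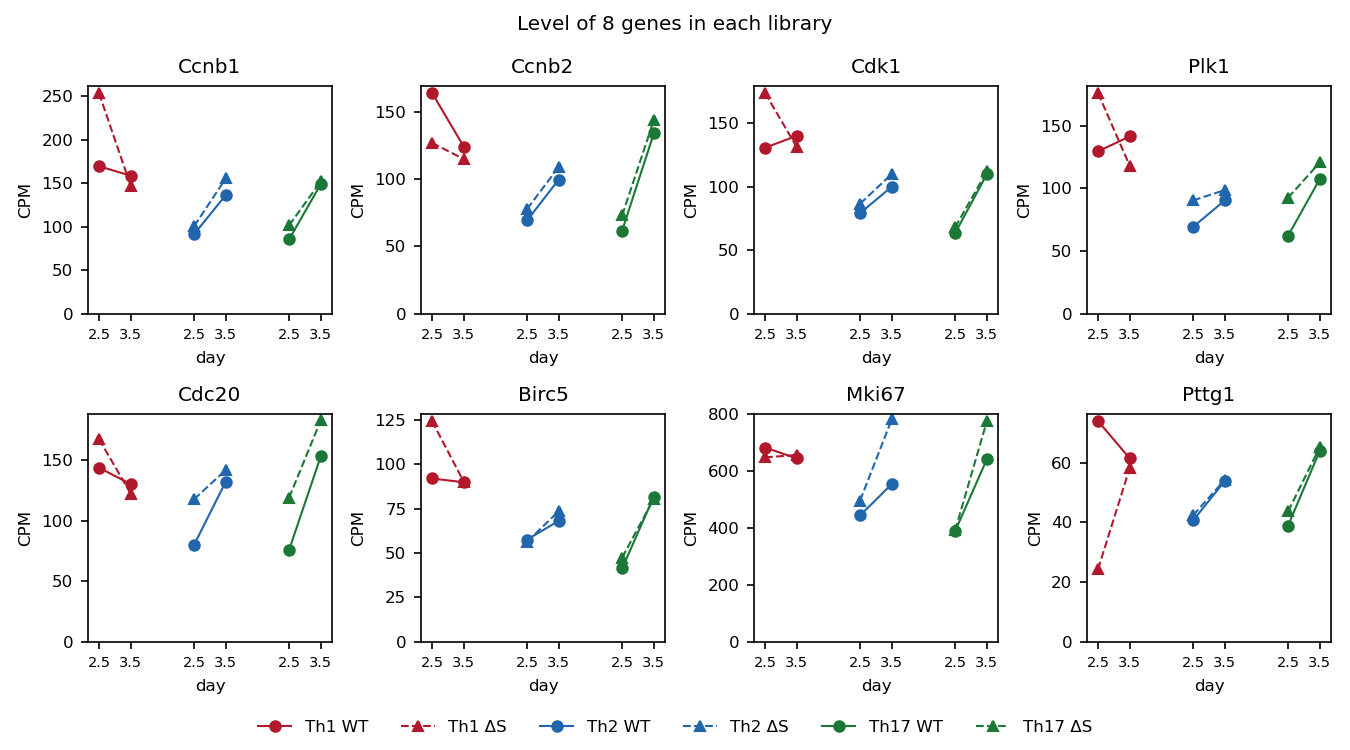
CPM of 8 genes in each library against day; circles with solid lines are WT, triangles with dashed lines NFATc1/ΔS, and lines join the 2 days of a cell type and genotype. The Th2 and Th17 lines climb in all 8 panels, and Th1 NFATc1/ΔS day 2.5 holds the highest Ccnb1 (253 CPM) and the lowest Pttg1 (24.3 CPM).

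RNA of other cells and the intron share also moved with day. The 8 erythroid markers summed to 8.95 to 24.2 CPM in the Th2 and Th17 libraries of day 2.5 and to 1.97 to 3.22 on day 3.5, with both measurable markers lower. CD8 T and NK cell markers were lower for 3 of 6 measured genes and summed to 33.5 to 218 CPM over these 8 libraries. Introns took 2.28% to 3.43% of reads on day 2.5 and 2.93% to 4.16% on day 3.5 in these libraries. Their part in the result was not tested.

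Fitted on the 8 Th2 and Th17 libraries with a day term for each cell type, edgeR called 40 of 40 genes higher on day 3.5 in Th17, where it called 17.1% of all genes higher. In Th2 it called 30 of 40 higher, where it called 14.3%. The median difference was 0.70 in Th17 (1.62-fold, range 0.29 to 1.05) and 0.33 in Th2 (1.26-fold, range -0.03 to 0.60). Both day 3.5 libraries lay above both day 2.5 ones for 40 genes in Th17 and 36 in Th2, as for 34.7% and 34.6% of all genes. With a spread shared with the Th1 libraries, edgeR called 0 of 40 in either cell type, as it called 0% of 12797 genes. In that fit an unadjusted p under 0.05 was found for 38 of the 40 in Th17 and 20 in Th2. Of all 12797 genes, 2737 in Th17 and 2349 in Th2 had one. The smallest edgeR adjusted p of the 40 in Th17 was 0.0786, and DESeq2 called 29 in Th17 and 0 in Th2. The Th2 count was the less stable: DESeq2 called 17 on the 8 libraries, and edgeR called fewer still without either Th2 pair. No share of all genes stands beside these counts, which show only that the count moved.

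In Th17 the largest differences were Ccnb2 at 1.05 ± 0.08 (edgeR adjusted p = 2.88e-06), Kif11 at 0.94 ± 0.10, Nek2 at 0.91 ± 0.10, Cenpe at 0.88 ± 0.11 and Birc5 at 0.88 ± 0.09. In Th2 they were Ccnb1 at 0.60 ± 0.09 (edgeR adjusted p = 0.000232), Foxm1 at 0.59 ± 0.10, Nek2 at 0.57 ± 0.10, Cenpe at 0.56 ± 0.11 and Cdc25c at 0.56 ± 0.13. Aurkb (0.08 ± 0.08), Kif4 (0.08 ± 0.09), Nusap1 (0.10 ± 0.10) and Anln (-0.03 ± 0.11) were among the 10 that did not pass in Th2.

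The difference between the 2 day effects was itself tested. It was above 0, that is larger in Th17, for all 40 estimates, with a median of 0.35 against 0.01 for all genes. edgeR called 3 genes, where it called 0.604% of all genes in that direction: Ccnb2 (0.55 ± 0.12, adjusted p = 0.0326), Birc5 (0.57 ± 0.13, adjusted p = 0.0430) and Kif4 (0.52 ± 0.12, adjusted p = 0.0474). A further 26 genes had an unadjusted p under 0.05, Anln among them (0.66 ± 0.16, edgeR adjusted p = 0.0592), and DESeq2 called 0. Of all 12415 genes, 1636 had an unadjusted p under 0.05 in either direction, those called included. Ccnb1 was the gene least different between the cell types (0.10 ± 0.12). Birc5 illustrates the 3: it stood at 57.6 and 56.4 CPM in Th2 on day 2.5 and 68.2 and 73.6 on day 3.5, but at 41.3 and 47.4 in Th17 on day 2.5 and 81.9 and 80.6 on day 3.5. Th17 thus began below Th2 and ended above it.

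**Figure D4:**
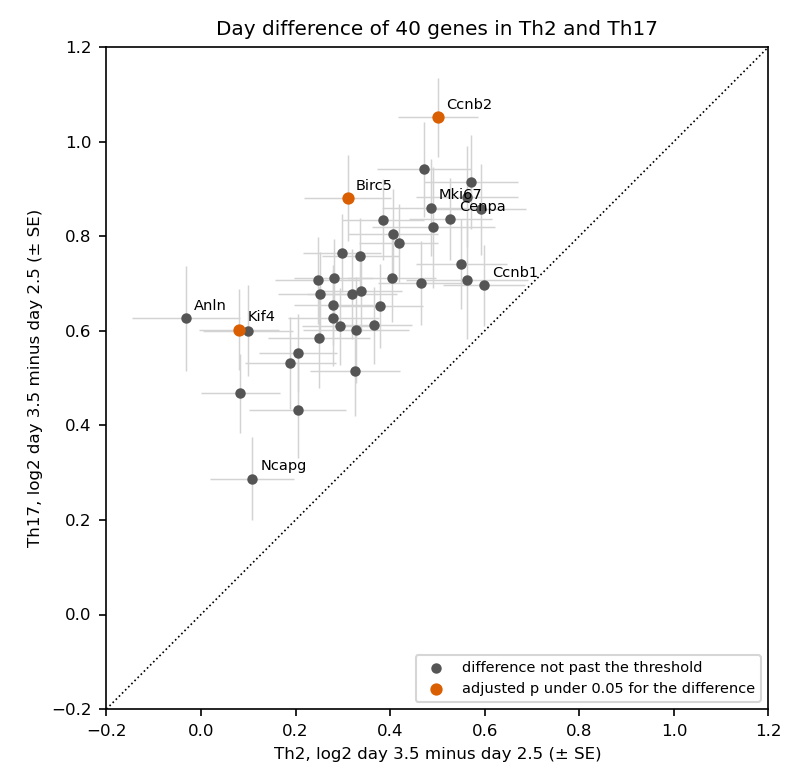
Each point is 1 of the 40 genes, with its day difference in Th2 on the horizontal and in Th17 on the vertical axis (log2, day 3.5 minus day 2.5, bars ± SE, 8-library fit). The dotted line marks equal differences; all 40 points lie above it, and orange marks Ccnb2, Birc5 and Kif4, whose difference passed at an adjusted p under 0.05.

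In Th1 no gene of the set passed between the days. Of 40 genes, none lay higher in both day 3.5 libraries than in both day 2.5 libraries, as 26% of all genes did, and 16 lay lower in both, as 25.1% did. edgeR called 0 of 40 between the days, where it called 5.36% of 12797 genes, and DESeq2 also called 0. An unadjusted p under 0.05 was found for 5 of the 40 and for 3409 of the 12797, a smaller share of the 40. The median was -0.16, and the smallest p values belonged to Kif11 (-0.47 ± 0.15), Dlgap5 (-0.30 ± 0.11), Cenpa (-0.29 ± 0.12), Ccnb1 (-0.46 ± 0.19), Ccnb2 (-0.29 ± 0.12) and Racgap1 (-0.24 ± 0.12), with edgeR adjusted p from 0.119 to 0.248. Without Th1 WT day 2.5, 15 genes passed, 14 of them lower on day 3.5, where edgeR called 47% of all genes; leaving out a Th1 library leaves the spread to the Th2 and Th17 libraries alone. CD8 T and NK cell markers had estimates below 0 for 6 of 6 measured genes, of which Klrd1 (-2.91) and Gzma (-1.55) passed, and summed to 77.0 and 66.9 CPM on day 2.5 and 40.4 and 39.8 on day 3.5, WT first. Erythroid markers had estimates above 0 for 3 of 3, none of which passed by edgeR (2 at an unadjusted p under 0.05), with sums of 3.29 and 3.12 CPM and then 7.36 and 8.07. Their part in the result was not tested.

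Ccnb1 shows how far the 2 Th1 libraries of day 2.5 differed: it stood at 169 CPM in WT and 253 in NFATc1/ΔS on day 2.5, and at 159 and 147 on day 3.5. Pttg1 went the other way, with 73.9 CPM in WT and 24.3 in NFATc1/ΔS on day 2.5 and 61.4 and 58.3 on day 3.5. The remaining 8 libraries read Pttg1 at 38.9 to 65.2 CPM, so Th1 NFATc1/ΔS day 2.5 was below all of them. The same library also had the highest sum of 35 G1/S and replication genes, 7108 CPM against 2477 to 4443 elsewhere. The ratio of the 40-gene sum to that sum was 1.02 there and 1.40 to 1.64 in the other 11 libraries.

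Whether the 3 cell types shared 1 day effect was tested in the 12-library fit. edgeR called 5 of 40, where it called 5.01% of all genes: Ccnb2 (adjusted p = 0.0233), Cenpa (0.0307), Kif11 (0.0351), Dlgap5 (0.0477) and Nek2 (0.0486). At an unadjusted p under 0.05 the number was 31, beside 3654 of all 12797 genes. The count was 38 without Th1 WT day 2.5, where edgeR called 49.8% of all genes, 31 without Th1 NFATc1/ΔS day 2.5 (24.9% of all genes), 23 with DESeq2, and 0 without any 1 of the Th2 or Th17 pairs.

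The second comparison was between the cell types. Averaged over genotype and day, 17 of 40 genes were higher in Th1 than in Th2 and none lower by edgeR, where 14.6% of 12797 genes were called higher. The median was 0.48 (1.40-fold) against 0.07 for all genes. Bub1, a checkpoint kinase gene, differed by 0.71 ± 0.13 (edgeR adjusted p = 0.00435), Ncapg by 0.48 ± 0.11, Plk1 by 0.73 ± 0.17, Kif20a by 0.71 ± 0.18, Kif2c by 0.61 ± 0.17 and Nek2 by 0.78 ± 0.21. Bub1 stood at 109, 124, 125 and 111 CPM in the 4 Th1 libraries and at 66.1 to 81.9 in the 4 Th2 libraries, with no overlap. Cdk1 (0.66 ± 0.18), Foxm1 (0.66 ± 0.19), Ccna2 (0.61 ± 0.19), Birc5 (0.67 ± 0.22) and Ube2c (0.48 ± 0.15) also passed. Ccnb1 (0.65 ± 0.24, edgeR adjusted p = 0.0721) did not.

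The difference between Th1 and Th2 was given for each genotype and day, without a test of its change between days. The median over the 40 genes was 0.71 in WT and 0.63 in NFATc1/ΔS on day 2.5, and 0.39 and 0.07 on day 3.5. The genes higher in Th1 numbered 39 of 40 in each genotype on day 2.5, and 39 in WT and 23 in NFATc1/ΔS on day 3.5. Of all genes, 53.2% and 52.4% were higher in Th1 on day 2.5 and 52.3% and 52.2% on day 3.5, WT first. For 20 of 40 all 4 Th1 libraries were above all 4 Th2 libraries, as for 17.4% of all genes. On day 2.5 both Th1 libraries were above all 4 Th2 and Th17 libraries for 38 of 40 genes, all but Ttk and Pttg1, as for 26.8% of all genes. On day 3.5 this held for 7 of 40, as for 23.3% of all genes. Since the day 2.5 libraries of Th1 stand apart, the calls were repeated without them: 3 genes passed without Th1 WT day 2.5 (11.9% of all genes higher), 8 without Th1 NFATc1/ΔS day 2.5 (16.6%) and 4 without both (23.9%). B cell markers were lower in Th1 for 7 of 7 measured genes, with sums of 4.52 to 8.88 CPM in Th1 and 36.3 to 50.4 in Th2 and with Ms4a1 at 0 in both Th1 WT libraries; their part in the result was not tested.

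Against Th17, 4 of 40 genes were higher in Th1, where edgeR called 1.95% of all genes higher: Ttk (0.78 ± 0.13, adjusted p = 0.0156), Ncapg (0.55 ± 0.11, adjusted p = 0.0269), Bub1 (0.62 ± 0.13, adjusted p = 0.0303) and Cdk1 (0.76 ± 0.18, adjusted p = 0.0499). The count was 2 without Th1 WT day 2.5 (2.34% of all genes higher), 3 without Th1 NFATc1/ΔS day 2.5 (3.23%) and 5 without both, where edgeR called 30.4% of all genes in either direction. The 5 were the same 4 genes and Cdc20, which was lower in Th1 (-0.33, edgeR adjusted p = 0.0393). Leaving out all libraries of a genotype and day left 0 to 1. The medians by pair were 0.90 and 0.74 on day 2.5 and 0.13 and -0.10 on day 3.5, WT first. Between Th2 and Th17 only Ttk differed by edgeR (0.63 ± 0.13 higher in Th2, adjusted p = 0.0151), where 6.36% of all genes were called higher in Th2. Ttk, which codes for the checkpoint kinase MPS1, was read at 39.2 to 50.3 CPM in Th2, 39.4 to 56.4 in Th1 and 22.5 to 35.3 in Th17. The 4 Th17 values lay below all 8 others. On day 2.5 the Th2 libraries were the higher for 36 (WT) and 29 (NFATc1/ΔS) of 40 genes, and on day 3.5 for 3 and 5. Of all genes, 48.6% and 48.4% were higher in Th2 on day 2.5 and 46.8% and 46.2% on day 3.5, WT first. In the same order the medians over the 40 were 0.19 and 0.07, then -0.25 and -0.13. Most of the 40 were thus higher in Th2 on day 2.5 and in Th17 on day 3.5.

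The third comparison was genotype, NFATc1/ΔS against WT. Over all 6 pairs (same cell type and day) no gene passed: edgeR called 0 of 40, as it called 0% of 12329 genes, and 10 of the 40 had an unadjusted p under 0.05, as did 716 of all genes. DESeq2 also called 0 of 40. The median was 0.12, the smallest unadjusted p was that of Espl1 (0.28 ± 0.07), and every adjusted p was at least 0.823. Within Th1, Th2 and Th17 taken singly edgeR called 0 of 40 in each, in a fit where it called 0% of all genes. DESeq2 also called 0 in each. An unadjusted p under 0.05 was found for 1, 1 and 3 of the 40, and for 666, 303 and 404 of all 12797 genes.

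Over the 4 Th2 and Th17 pairs, 4 of 40 genes were higher in NFATc1/ΔS, where edgeR called 0.749% of 12415 genes higher. They were Kif20a, a cytokinesis motor gene (0.32 ± 0.06, adjusted p = 0.00965), Espl1 (0.30 ± 0.06, adjusted p = 0.0120), the condensin gene Ncaph (0.29 ± 0.06, adjusted p = 0.0162) and the spindle gene Dlgap5 (0.25 ± 0.06, adjusted p = 0.0477). Cdc20 (0.38 ± 0.09, edgeR adjusted p = 0.0519) and Plk1 (0.31 ± 0.07, edgeR adjusted p = 0.0523) had larger or like estimates and did not pass. All 40 estimates were above 0, with a median of 0.20 (1.15-fold) against 0.00 for all genes. Of the 40, 31 had an unadjusted p under 0.05, as did 1750 of all 12415 genes. Kif20a stood in WT and NFATc1/ΔS at 63.7 and 79.3 CPM in Th2 on day 2.5, at 83.6 and 104 in Th2 on day 3.5, at 58.6 and 79.9 in Th17 on day 2.5 and at 112 and 132 in Th17 on day 3.5. NFATc1/ΔS was higher in each of the 4 pairs, by less than the day difference of the same gene (0.61 ± 0.10).

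By pair, the genotype median was 0.13 and 0.21 in Th2 and 0.27 and 0.15 in Th17, day 2.5 first, with 37 or 38 of 40 genes higher in NFATc1/ΔS in each pair, where 48.8% and 48.6% of all genes were in Th2 and 48.9% and 50.5% in Th17. In Th1 it was 0.14 on day 2.5 (25 of 40 higher, 50.4% of all genes) and -0.10 on day 3.5 (4 of 40 higher, 49.1% of all genes). Whether the genotype effects were equal in the 3 cell types was tested, and edgeR called 0 of 40, as it called 0% of all genes, with 0 of 40 at an unadjusted p under 0.05 and 0 called by DESeq2. The 4 calls were sensitive to the fit: no gene passed without the block on cell type and day, and 0 to 5 passed without any 1 of the pairs. The genotype effect by day was tested over the 6 pairs and edgeR and DESeq2 each called 0 of 40 (edgeR 0% of all genes). At an unadjusted p under 0.05 there were 2 of 40, beside 919 of all 12329 genes, which is no larger a share. The 2 were Plk1 (-0.46) and Cdc20 (-0.39), both with the larger genotype difference on day 2.5.

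Markers of other cells also differed by genotype in Th2 and Th17. Estimates for CD8 T and NK cell markers were below 0 in NFATc1/ΔS for 5 of 6 measured genes, 1 of which passed, and the markers summed in Th2 to 218 and 215 CPM in WT and 97.6 and 77.2 in NFATc1/ΔS, day 2.5 first. In Th17 the sums were 61.3 and 41.0 CPM in WT and 51.2 and 33.5 in NFATc1/ΔS. B cell markers had estimates below 0 for 7 of 7 measured genes, 1 of which passed, with sums of 22.5 to 50.4 CPM in WT and 14.7 to 37.4 in NFATc1/ΔS. No list marker of CD8 T and NK cells was at 0 throughout, and the part of these cells in the result was not tested.

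**Figure D5:**
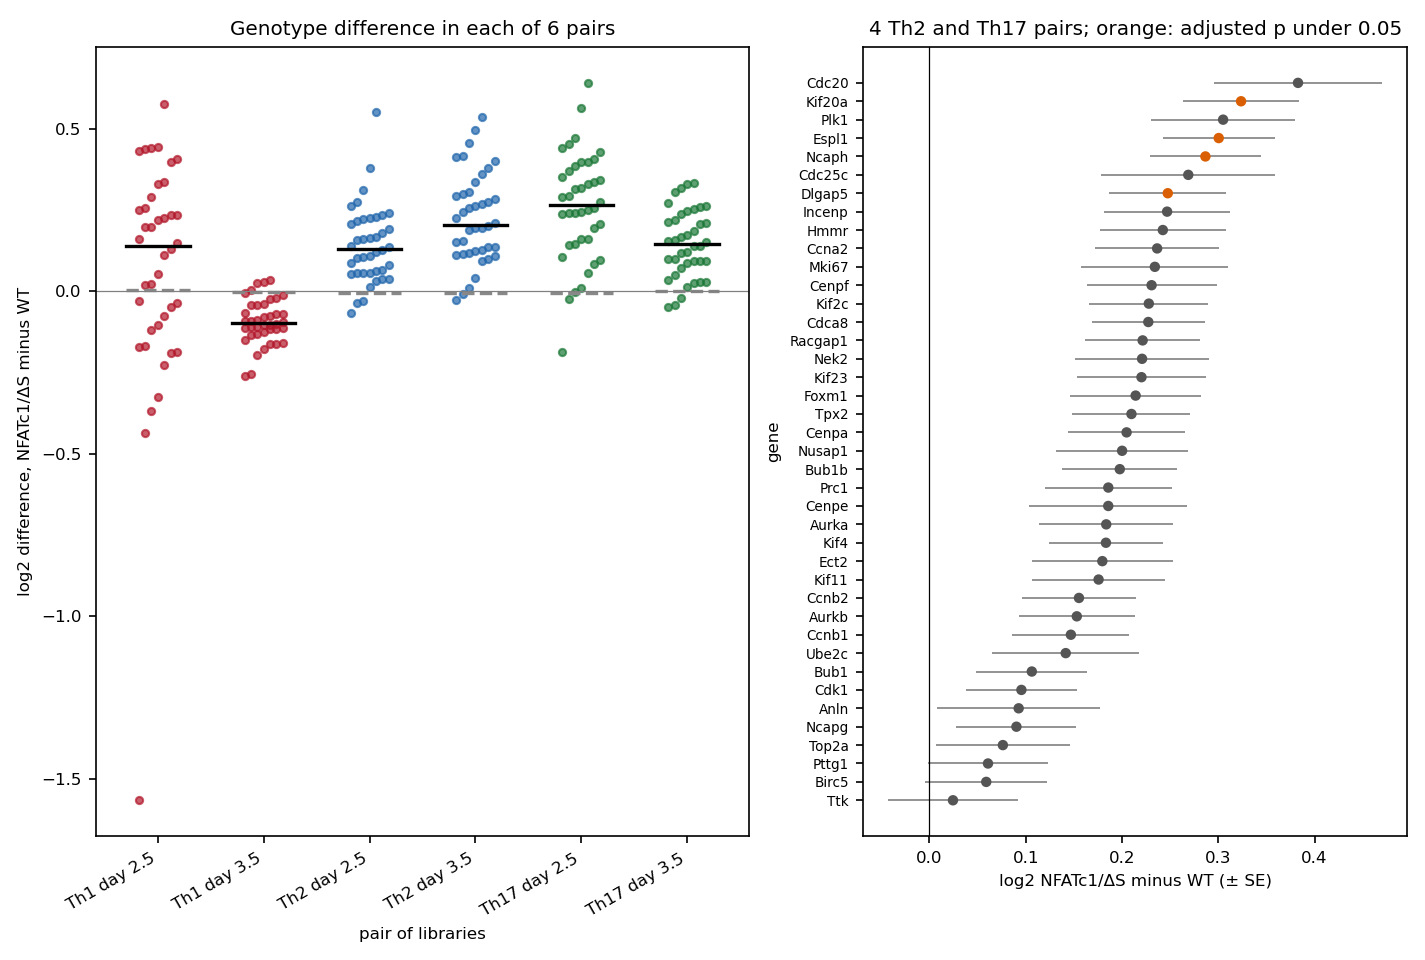
Left, the log2 difference NFATc1/ΔS minus WT of the 40 genes in each pair of libraries, with the 40-gene median in black and the median of all genes as a dashed grey line. Right, the estimates over the 4 Th2 and Th17 pairs with bars of ± SE; all 40 lie above 0, and the 4 in orange (Kif20a, Espl1, Ncaph and Dlgap5) passed at an adjusted p under 0.05.

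Other genes of mitosis, taken from lists by function, moved between the days in Th2 and Th17 as follows, by edgeR over the 4 pairs, where it called 20.8% of all genes higher and 19.7% lower and the median of all genes was 0.03. Of 33 other kinetochore and centromere genes 28 rose and none fell (median 0.47), among them Cenpi (0.89 ± 0.10), Ska1 (0.75 ± 0.11) and Knl1 (0.64 ± 0.10). Of 36 other spindle and cytokinesis genes 29 rose and none fell (median 0.55), led by Pimreg (1.06 ± 0.10) and Ckap2 (0.75 ± 0.08). Of 22 genes of the G2/M switch 13 rose and none fell (median 0.34), including Mybl2, the gene for B-MYB (0.75 ± 0.09), Bora, an activator of PLK1 (0.76 ± 0.10), and Cdkn3 (0.85 ± 0.12).

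The same fit gave the following for chromosome structure and the APC/C. Of 19 condensin and cohesin genes 8 rose and 1 fell (median 0.19, against 20.8% of all genes higher and 19.7% lower), with the condensin subunit gene Smc2 at 0.69 ± 0.09. Of 23 APC/C and checkpoint genes 9 rose and 4 fell (median 0.13, against the same 20.8% and 19.7%). Trip13, which silences the checkpoint, rose by 0.81 ± 0.11, and Fzr1, the APC/C activator gene of G1, by 0.35 ± 0.06.

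Genes of G1 and S phase were counted in the same fit, beside 20.8% of all genes higher and 19.7% lower. Of 35 G1/S and replication genes 31 rose and none fell (median 0.48), including Gins1 (0.74 ± 0.10), Rfc3 (0.63 ± 0.08), Mcm10 (0.61 ± 0.08) and Uhrf1 (0.57 ± 0.07). Of 16 measured cyclin D, CDK and CDK inhibitor genes 7 rose and 4 fell (median 0.13). Cdkn1b, the gene for the CDK inhibitor p27, fell by 0.78 ± 0.06 on the log2 scale (edgeR adjusted p = 1.78e-05), Cdkn2d (p19) fell by 0.44 ± 0.07, and Cdk2 rose by 0.49 ± 0.07.

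For genotype over the same 4 pairs, edgeR called 9 genes of these lists, all higher in NFATc1/ΔS, where it called 0.749% of all genes higher. These calls come from the fit in which the count among the 40 genes fell to 0 without the block and to between 0 and 5 without a pair. They were the kinetochore genes Ndc80 (0.36 ± 0.07) and Kntc1 (0.28 ± 0.06), the cohesion genes Sgo2a (0.32 ± 0.07), Esco2 (0.39 ± 0.09) and Cdca5 (0.30 ± 0.07), Gtse1 (0.37 ± 0.07), and the spindle genes Kifc1 (0.37 ± 0.06, adjusted p = 0.00321), Kif18b (0.33 ± 0.07) and Troap (0.40 ± 0.09). None of the 35 G1/S genes (median 0.13, 15 at an unadjusted p under 0.05) and none of the 23 APC/C genes (median 0.04, 2 at an unadjusted p under 0.05) passed by edgeR. Of all 12415 genes, 1750 had an unadjusted p under 0.05 in this fit.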

How the data were processed

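Poly(A) RNA of 12 mouse T helper cultures was sequenced, and the deposited files give read counts per gene, assigned by the authors to GRCm38 per the submitters' processing notes; the aligner and counter were not given in the sources used here. Per the file headers, each file holds total, unique, exon and intron gene reads; TPM and RPKM columns were not used. Total gene counts were tested with edgeR 4.0.16 (R 4.3.3; TMM, filterByExpr with a minimum count of 10 and a minimum total of 15, robust quasi-likelihood fit, Benjamini-Hochberg adjustment over all genes tested, threshold 0.05). SE is the log2 fold change divided by the root of F. CPM values use TMM library sizes, and differences within a pair of libraries use log2(CPM + 1). For values by pair, groups that do not overlap and correlations, all genes means the 10835 that passed this filter with all 12 libraries as 1 group. The day and genotype fits had blocks of matched libraries. DESeq2 1.42.0, RLE size factors, unique or exon reads, no filter, no block and left-out libraries or pairs were alternatives. Where a count from an alternative stands without the share of all genes, it shows only whether the count moved. Calling was tested on simulated counts with the same spread for all genes and no outlying libraries, so that test does not measure error rates in these fits. Some marker genes are not reported here. The 40 genes and all lists were chosen with earlier results of these data known, and the 8-library day fits after seeing the data. Named in each comparison were the up to 6 genes of smallest adjusted p under 0.05 (of smallest p where fewer than 5 passed), 12 genes followed throughout and up to 4 genes per other list, with further examples picked after their values were seen. Depth limits single-library counts, and with 1 library per combination only matched libraries give the spread.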

Additional observations from a re-analysis of the deposited data

Results flagged for a closer look

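By edgeR, some of the 40 genes were called for a day effect that differed between cell types. Both counts depended on the libraries, filter and tool used, as given below. In the test of equal day effects in Th1, Th2 and Th17, edgeR's quasi-likelihood test called 5 genes, where it called 5.01% of all genes. Adjusted p by this test was 0.0233 for Ccnb2, 0.0307 for Cenpa, 0.0351 for Kif11, 0.0477 for Dlgap5 and 0.0486 for Nek2. Each was lower on day 3.5 in Th1 by estimate and higher in Th2 and Th17. The fit includes both Th1 day 2.5 libraries, which stood apart. In the test of Th17 against Th2 on 8 libraries, edgeR called 3 genes, where it called 0.604% of all genes in that direction. Its adjusted p was 0.0326 for Ccnb2, 0.0430 for Birc5 and 0.0474 for Kif4, each with the larger rise in Th17.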

How the results depend on the processing

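All counts here are of the 40 genes by edgeR unless another tool is named. The share of all genes called also moved between settings, as given above for settings without Th1 day 2.5 libraries. It is not repeated here, so a count shows how far the result moved and not how the 40 compare with all genes. The rise over the 4 Th2 and Th17 pairs (34 to 39 genes) and the Th17 rise on 8 libraries (37 to 40) stayed within 1.5 times under every alternative run. Settings without Th1 NFATc1/ΔS day 2.5 or without both Th1 day 2.5 libraries, and the 8-library day fits, were chosen after seeing the data. For day over 6 pairs the count was 1 without Th1 NFATc1/ΔS day 2.5, 38 without both and 39 without the 4 Th1 libraries (0 to 1 leaving out a pair). For day in Th1 it was 15 without Th1 WT day 2.5 and 2 without Th1 NFATc1/ΔS day 2.5 (0 to 15). For day in Th2 it was 28 without either or both (0 to 28), and for day in Th17 it was 40 without either or both, 29 with DESeq2 and 19 with no filter (0 to 40). Equal day effects gave 16 with no filter, 23 with DESeq2, 38 without Th1 WT day 2.5 and 31 without Th1 NFATc1/ΔS day 2.5 (0 to 38). On 8 libraries, day in Th2 gave 17 with DESeq2 (8 to 32), and Th17 against Th2 gave 0 with DESeq2, 14 with no filter and 5 with unique reads (0 to 5). Th1 against Th2 gave 10 with RLE, 3 without Th1 WT day 2.5, 8 without Th1 NFATc1/ΔS day 2.5 and 4 without both (1 to 15). Th1 against Th17 gave 10 with DESeq2 and 2 without Th1 WT day 2.5 (0 to 1), and Th2 against Th17 gave 2 without both and 3 without the 4 Th1 libraries (0 to 1). Genotype over 6 pairs gave 4 without the 4 Th1 libraries; over 4 pairs it gave 17 with no filter, 9 with unique reads and 11 with exon reads (0 to 5). Genotype in Th1 ranged from 0 to 12 and equal genotype effects from 0 to 4 leaving out a pair. The cause of these shifts was not tested, except that leaving out Th1 libraries removes their spread by construction.

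The labels number no replicates, and the fits pair libraries by cell type with genotype or day; without that pairing (no replicate block), genotype over the 4 pairs gave 0 and day over the 4 pairs 39.

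For named genes, 1731 values in the alternatives kept direction and side of the threshold, 112 gained and 126 lost a call, and 17 changed sign. Without both Th1 day 2.5 libraries, Th1 against Th2 was -0.10 for Mki67 and -0.19 for Cdc20, and Th1 against Th17 was -0.021 for Mki67 and -0.33 for Cdc20 (edgeR adjusted p = 0.0393). Th1 against Th17 for Cdc20 was -0.046 without Th1 WT day 2.5 and ranged from -0.105 to 0.42 leaving out a genotype and day. Th2 against Th17 turned to 0.021 for Ccnb1 and 0.012 for Ccna2 with RLE and, to the same digits, with DESeq2. Leaving out a genotype and day, Th2 against Th17 ranged from -0.0035 to 0.15 for Bub1b, -0.064 to 0.18 for Birc5, -0.00049 to 0.17 for Mki67, -0.029 to 0.038 for Ccnb1 and -0.10 to 0.093 for Ccna2. None of these passed except Cdc20 without both. The spread between matched libraries (biological coefficient of variation 7.59% to 26.0% by fit) limited what could be detected. It sets no fixed threshold, and differences of its size or larger could also be missed.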
